A study of Mus musculus with 2 samples.

Results

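The transcription factor gene Trp53 and 6 of its known target or partner genes (Cdkn1a, Ccng1, Mdm2, Phlda3, Zmat3 and Gtse1) were followed in single multipotent progenitors of mouse bone marrow. They were chosen by symbol and make up 7 of the 27998 genes counted. The cells came from 1 sample of C57BL/6 wild-type mice and 1 of C57BL/6 Spp1-/- mice, which lack the gene of the secreted protein osteopontin. Both samples were taken 20 hours after thioglycollate, an irritant that draws leukocytes into the peritoneum, was injected into that cavity, so no untreated mouse enters. The labels give a sort for cells that were negative for lineage markers and positive for Sca-1, c-kit and CD34, with a further gate written there as Flt3L+. They state neither the animals' number nor their age. The deposited counts hold 2 libraries, told apart by a barcode suffix and called library 1 and library 2 here. Which of them is wild-type is not stated in the labels, so the differences below carry no direction by genotype.

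p53 is held low in resting cells because Mdm2, a ubiquitin ligase, binds it and sends it to the proteasome. Damage or nucleolar stress frees p53, which then binds DNA at response elements and switches on genes of arrest, repair and death, Mdm2 among them. In blood-forming cells p53 is known for limiting stem-cell proliferation and for removing damaged progenitors. Since p53 is controlled largely at the protein level, the Trp53 transcript does not measure its activity.

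In kept cells (at least 500 genes and under 10% mitochondrial UMIs) library 1 held 3253 cells and 10118499 UMIs, and library 2 held 4570 cells and 18750468 UMIs. A UMI is a tag that marks 1 captured RNA molecule. The median depth was 2830 and 3836 UMIs per cell, so raw shares of cells with a transcript favour library 2. They were therefore also taken on random draws of 2000 UMIs from each cell that had as many, called thinned cells here, of which there were 2444 and 4016. The 809 and 554 shallower cells are left out of all values on thinned cells. The log2 ratio of library 2 over library 1 had a median of 0.11 over the 10099 genes tested, those of 50 UMIs or more. The libraries shared 32 barcode sequences. Of the sort markers, Cd34 was seen in 67.8% and 80.4% of cells, Ly6a in 54.4% and 59.0%, Kit in 10.1% and 13.6%, and Flt3 in 30.3% and 41.6%. Dendritic and MHC class II transcripts summed to 1550 and 793 counts per 1000000 UMIs (CPM), with 0 of 12 symbols at 0. T and NK cell markers summed to 300 and 320 CPM, with most UMIs from Nkg7, and 3 of 7 counted symbols (Cd3e, Cd3g and Ncr1) were at 0. Neither genotype had a replicate, so no test was made, and all intervals are 95% intervals that cover counting error only.

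The start-site windows are shown first, because they show which members carry a p53 response element or a CCAAT box close to the start. RefSeq windows (GRCm38.p6) of 300 bases, 250 before and 50 after a start, matched 6 of the 7 genes, with 8 windows; Zmat3 had none. A p53 response element of 20 bases was searched by its consensus, without a spacer and with at most 1 mismatch, on both strands. No mismatch was allowed in the CWWG core (W is A or T) of either repeat, so looser elements were not counted. It was found in the upstream window of Cdkn1a and in the second window of Gtse1. Of all 32851 windows, 18 (0.0548%) held one. CCAAT, the letters bound by NF-Y at many cell-cycle promoters, stood in 37.4% of all windows, and TTTGAA, the cell-cycle homology element, in 17.9%. The Ccng1 window held 4 CCAAT boxes, the first Gtse1 window 3, and the Mdm2 and Trp53 windows 1 each. The Phlda3 window and both Cdkn1a windows held none, and no member window held TTTGAA. A match is a description of letters, and binding was not measured. In the 3 windows below, capitals mark the p53 element in Cdkn1a and Gtse1 and the CCAAT boxes, on either strand, in Ccng1. They lie at chr17:29090729-29091028 (plus strand), chr15:85859696-85859995 (plus strand) and chr11:40755237-40755536 (minus strand).
Cdkn1a: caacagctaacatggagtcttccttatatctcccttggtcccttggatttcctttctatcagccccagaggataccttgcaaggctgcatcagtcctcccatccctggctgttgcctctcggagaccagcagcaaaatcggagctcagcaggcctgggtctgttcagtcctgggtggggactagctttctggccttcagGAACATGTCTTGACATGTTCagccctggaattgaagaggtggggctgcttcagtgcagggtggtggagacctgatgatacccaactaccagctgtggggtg
Gtse1: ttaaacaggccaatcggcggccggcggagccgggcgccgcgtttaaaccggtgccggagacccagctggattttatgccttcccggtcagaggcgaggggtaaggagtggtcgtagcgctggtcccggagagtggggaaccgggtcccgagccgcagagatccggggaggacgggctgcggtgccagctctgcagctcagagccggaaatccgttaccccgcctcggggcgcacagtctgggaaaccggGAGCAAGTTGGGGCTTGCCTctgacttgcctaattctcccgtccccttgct
Ccng1: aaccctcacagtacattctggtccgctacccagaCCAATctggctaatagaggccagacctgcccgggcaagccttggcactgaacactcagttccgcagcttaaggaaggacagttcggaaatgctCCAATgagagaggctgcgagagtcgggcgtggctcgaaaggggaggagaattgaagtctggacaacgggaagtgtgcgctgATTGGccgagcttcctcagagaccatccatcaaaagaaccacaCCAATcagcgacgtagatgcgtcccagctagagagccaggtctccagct
The Cdkn1a element began 51 bases before this start (position -51) and the Gtse1 element at position -1, each with 1 mismatch to the consensus.

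Trp53 was by far the most abundant member, and its targets were each seen in a small minority of cells. Trp53 (ENSMUSG00000059552, chromosome 11, 69580359 to 69591873, plus strand, GRCm38) had 2664 UMIs in library 1 and 5859 in library 2. That is 263 CPM (253 to 274) and 313 CPM (304 to 321), rank 480 of the 10099 genes by UMIs. These 3-prime counts are 1 per molecule and were not divided by length. Trp53 was seen in 53% of library 1 cells and 68.7% of library 2 cells, and after thinning in 40.8% (38.8 to 42.8) and 47.7% (46.2 to 49.3). Its log2 ratio of library 2 over library 1 was 0.25 (0.18 to 0.31). With TMM scaling it was 0.16, and with totals without ribosomal protein and mitochondrial genes 0.15. Without the cells rich in mitosis transcripts it was 0.33, so each of these values lay outside that interval. The number of thinned cells with 2 or more Trp53 UMIs, 246 and 532, lay close to the 243 and 554 that a Poisson spread over equal cells gives.

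Mdm2 (ENSMUSG00000020184, chromosome 10, 117688875 to 117710758, minus strand), the ligase that p53 induces and that degrades it, had 148 and 350 UMIs. Its level was 14.6 CPM (12.4 to 17.2) in library 1 and 18.7 CPM (16.8 to 20.7) in library 2, a log2 ratio of 0.35 (0.07 to 0.64). After thinning it was seen in 3.03% (2.38 to 3.79) and 3.31% (2.78 to 3.91) of cells.

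Cdkn1a (ENSMUSG00000023067, chromosome 17, 29090976 to 29100727, plus strand) encodes the inhibitor of cyclin-dependent kinases through which p53 arrests the cycle. It had 203 UMIs in library 1 and 620 in library 2, or 20.1 CPM (17.4 to 23.0) and 33.1 CPM (30.5 to 35.8). The log2 ratio was 0.72 (0.49 to 0.96), a 1.65-fold difference, and 97.3% of tested genes had a lower one. On thinned cells it was 0.48, and without the cells rich in mitosis transcripts 0.42, so in these settings it was under 1.5-fold. Thinned shares were 4.13% (3.38 to 5.0) and 5.35% (4.68 to 6.10), with overlapping intervals. Cdkn1a was also the member whose UMIs were most unevenly spread. In library 2, 22 thinned cells held 2 or more Cdkn1a UMIs where a Poisson spread gives 6.84, and in library 1 the numbers were 3 and 2.15.

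Ccng1 (ENSMUSG00000020326, chromosome 11, 40748552 to 40755311, minus strand), a cyclin that brings a phosphatase to Mdm2, had 168 and 387 UMIs. Its level was 16.6 CPM (14.2 to 19.3) and 20.6 CPM (18.6 to 22.8), with a log2 ratio of 0.31 (0.05 to 0.58). Thinned shares were 3.07% (2.42 to 3.83) and 3.71% (3.15 to 4.34).

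Gtse1 (ENSMUSG00000022385, chromosome 15, 85859745 to 85876573, plus strand), a microtubule-associated protein of G2 and mitosis that binds and restrains p53, had 69 and 196 UMIs. Its level was 6.82 CPM (5.31 to 8.63) in library 1 and 10.5 CPM (9.04 to 12) in library 2, a log2 ratio of 0.62 (0.21 to 1.03). With TMM scaling the log2 ratio was 0.52 and without mitosis-rich cells 0.35, both under 1.5-fold. Thinned shares were 1.02% (0.663 to 1.51) and 1.72% (1.34 to 2.17).

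Phlda3 and Zmat3 were the sparsest members. Phlda3 (ENSMUSG00000041801, chromosome 1, 135766119 to 135769136, plus strand), which keeps the kinase Akt off membrane lipids, had 31 and 69 UMIs, or 3.06 CPM (2.08 to 4.35) and 3.68 CPM (2.86 to 4.66). Zmat3 (ENSMUSG00000027663, chromosome 3, 32334792 to 32366014, minus strand), an RNA-binding zinc-finger protein, had 26 UMIs in each library, or 2.57 CPM (1.68 to 3.77) and 1.39 CPM (0.906 to 2.03). The log2 ratio was 0.26 (-0.37 to 0.93) for Phlda3 and -0.89 (-1.73 to -0.05) for Zmat3, the only member lower in library 2 on all UMIs. As a mean over cells the log2 ratio of Zmat3 was -0.48, under 1.5-fold. On thinned cells Phlda3 was also lower in library 2, at -0.26. Thinned shares were 0.655% (0.375 to 1.06) and 0.523% (0.324 to 0.798) for Phlda3. For Zmat3 they were 0.614% (0.344 to 1.01) and 0.299% (0.155 to 0.521). In the order Trp53, Cdkn1a, Ccng1, Mdm2, Gtse1, Phlda3 and Zmat3, the intervals of the neighbours Cdkn1a and Ccng1 in library 1, of Ccng1 and Mdm2 in both libraries and of Phlda3 and Zmat3 in library 1 overlapped.

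Cdkn1a and Gtse1, 2 of the 7 members, were at least 1.5-fold higher in library 2, where 4.79% of all tested genes were. Zmat3, 1 of 7, was at least 1.5-fold lower, against 2.46% of genes. The median log2 ratio of the members was 0.31.

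**Figure D1:**
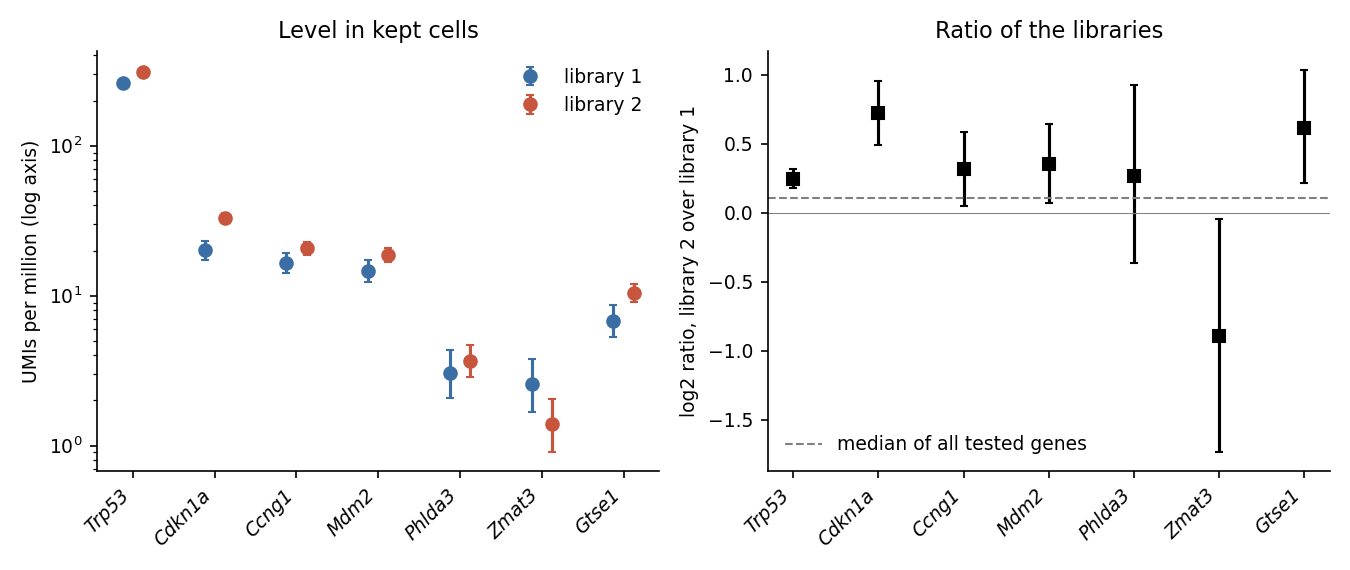
Left, level of each gene in UMIs per 1000000 (log axis) in library 1 and library 2, as points with exact Poisson 95% intervals; right, log2 ratio of the libraries with exact conditional intervals and a dashed line at the median of all tested genes, 0.11. Cdkn1a at 0.72 and Gtse1 at 0.62 stand highest and Zmat3 at -0.89 lowest.

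Whether the members follow the cell cycle was asked by sorting thinned cells by their UMIs of 49 G2 and mitosis genes and 45 S phase genes, lists that hold no member. Cells with 13 or more mitosis UMIs (mitosis-high) numbered 250 in library 1 and 915 in library 2, or 10.2% and 22.8%. Cells with 16 or more S phase UMIs (S-high) numbered 240 and 682, cells low in both (neither) 880 and 942, and the remaining cells 1074 and 1477. These are ranges of a per-cell sum, not cell types, and 269 cells lay within 1 UMI of the mitosis limit. Library 2 thus held a larger share of mitosis-high cells, and library ratios within each range are given beside those over all cells.

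Gtse1 went with mitosis in both libraries. It had 5 thinned UMIs in 250 mitosis-high cells against 2 in 880 cells of neither list in library 1, and 34 in 915 against 4 in 942 in library 2. The folds were 8.80 (1.44 to 92.4) and 8.75 (3.12 to 34.0). With all UMIs of the same cells they were 4.46 (2.13 to 9.70) and 9.95 (4.41 to 27.8). From cells with 0 mitosis UMIs to cells with 20 or more, its level went from 2.56 CPM (0.527 to 7.47) to 24.2 CPM (10.5 to 47.7) in library 1 and from 1.90 CPM (0.392 to 5.55) to 30.0 CPM (22.7 to 38.9) in library 2. Cells with 0 mitosis UMIs gave the background: a Gtse1 UMI was seen in 0.243% of 411 and 0.190% of 527 such thinned cells. Gtse1 was the 1 member of 7 that was at least 1.5-fold higher in mitosis-high cells of both libraries, where 6.93% of all tested genes were, and 0 members were that much lower, against 6.3% of genes.

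Trp53 differed little across the same ranges. In library 2 it was slightly lower in mitosis-high cells, though not at 1000 UMIs per cell. It had 272 CPM in mitosis-high and 259 CPM in neither cells of library 1, and 287 and 318 CPM in library 2, with thinned folds of 0.913 (0.744 to 1.11) and 0.887 (0.788 to 0.999). With all UMIs the library 2 fold was 0.901 (0.830 to 0.979). As a log2 value the thinned library 2 fold was -0.17, against 0.0085 at 1000 UMIs and -0.22 at 3000 UMIs. It was -0.072 with the second random draw and -0.36 with the stricter barcode filter. In library 2, 20.3% (18.5 to 22.1) of cells with a Trp53 UMI were mitosis-high, against 25.1% (23.3 to 27.0) of those without. In library 1 both shares were 10.2%. The Cdkn1a level differed between the libraries here. It was 19.3 CPM (11.8 to 29.8) in mitosis-high and 17.4 CPM (12.9 to 23.0) in neither cells of library 1, against 42.5 CPM (37.0 to 48.6) and 24.3 CPM (19 to 30.5) in library 2. The thinned folds were 1.26 (0.545 to 2.67) and 1.58 (1.05 to 2.41), with 10 and 63 UMIs in the mitosis-high cells. In library 1 the Cdkn1a fold had no stable direction, with log2 values of 1.49 at 1000 UMIs, -1.02 at 3000 UMIs and -1.26 with the stricter barcode filter. Ccng1 and Mdm2 had thinned folds of 1.13 and 1.28 in library 1 and 0.760 and 0.886 in library 2, each with an interval that held 1.

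**Figure D2:**
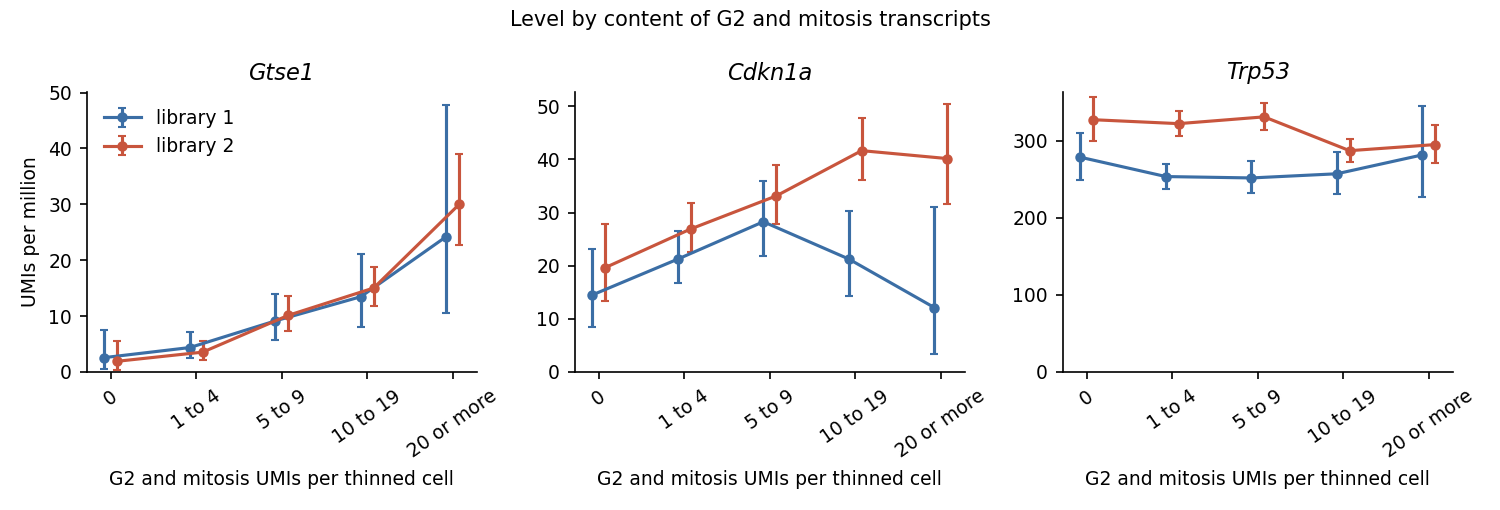
Level of Gtse1, Cdkn1a and Trp53 in UMIs per 1000000 (linear axes from 0), by the number of G2 and mitosis UMIs in a thinned cell; points carry exact Poisson 95% intervals for library 1 and library 2. Gtse1 goes up through every bin of both libraries, to 24.2 and 30.0 CPM, and Trp53 stays between 252 and 331 CPM.

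Gtse1 and Phlda3, 2 of 7 members, were at least 1.5-fold higher in S-high than in neither cells of both libraries, against 5.97% of genes, but on few UMIs. That much lower were 0 members, against 5.3% of genes. Gtse1 had 3 and 7 UMIs in S-high cells, and Phlda3 4 and 4. With all UMIs of the same cells no member remained at 1.5-fold in both libraries. Trp53 folds were 1.05 (0.862 to 1.27) and 0.999 (0.882 to 1.13), and Cdkn1a folds 1.31 (0.568 to 2.78) and 1.42 (0.898 to 2.23). Cdkn1a, the arrest gene, was thus not detectably lower in S-high cells at this depth.

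The library ratio was next taken within each range, on all UMIs. For Gtse1 it was close to 0 among mitosis-high cells, at -0.03 (-0.72 to 0.73), from 20.2 CPM in library 1 and 19.9 CPM in library 2. The Gtse1 ratio was 0.23 (-1.38 to 2.26) in S-high and -1.18 (-2.865 to 0.31) in neither cells. In the remaining cells it was 0.60 (-0.04 to 1.27), beside 0.62 over all cells. For Trp53 the ratio was 0.08 (-0.11 to 0.27) in mitosis-high and 0.25 (0.03 to 0.46) in S-high cells. It was 0.30 (0.16 to 0.44) in neither and 0.36 (0.25 to 0.47) in the remaining cells. For Cdkn1a it was 1.14 (0.48 to 1.88) in mitosis-high, 0.31 (-0.42 to 1.11) in S-high, 0.48 (-0.06 to 1.03) in neither and 0.35 (0.01 to 0.70) in the remaining cells, and these intervals overlap. Ccng1 and Mdm2 had ratios of 0.71 (0.14 to 1.30) and 0.82 (0.17 to 1.48) in neither cells and of -0.22 (-0.89 to 0.51) and -0.26 (-0.98 to 0.52) in mitosis-high cells. Differences of these ratios between ranges were not tested.

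**Figure D3:**
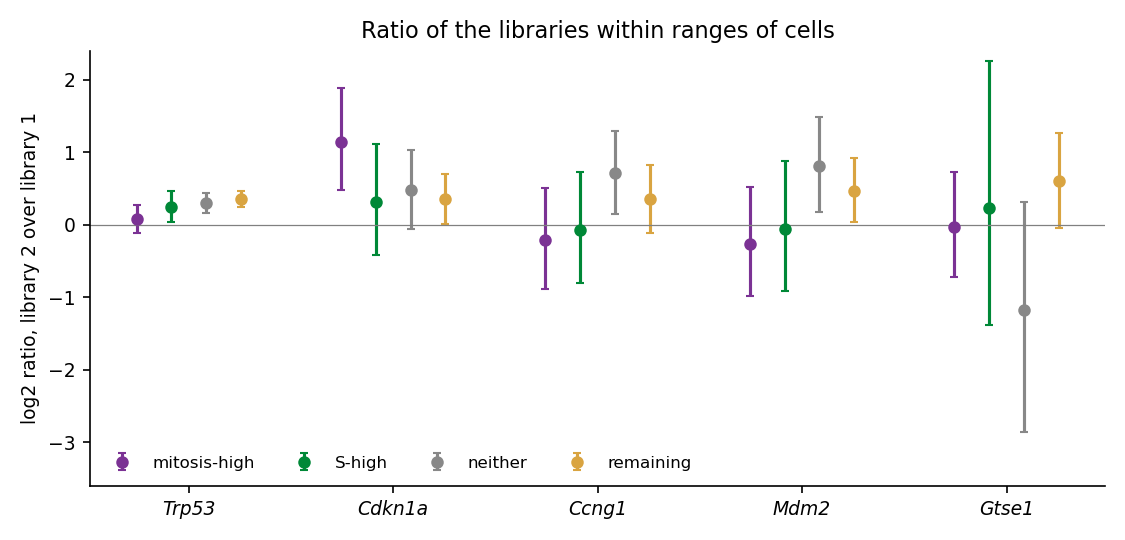
Log2 ratio of library 2 over library 1 (vertical axis) for Trp53, Cdkn1a, Ccng1, Mdm2 and Gtse1 within mitosis-high, S-high, neither and remaining cells, with exact conditional 95% intervals. Cdkn1a in mitosis-high cells, at 1.14, is the highest point, and the Gtse1 intervals of all 4 ranges hold 0.

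Lineage was read the same way, from lists of stem, lymphoid, myeloid, and megakaryocyte and erythroid transcripts, comparing cells at or above a limit (14, 4, 9 and 3 UMIs) with cells low in the list. Cdkn1a was higher in myeloid-high cells. Library 1 had 22 thinned Cdkn1a UMIs in 347 myeloid-high cells and 51 in 1483 myeloid-low cells, and library 2 had 58 in 642 and 115 in 2415. The folds were 1.84 (1.06 to 3.10) and 1.90 (1.36 to 2.62), and with all UMIs 1.46 (0.987 to 2.12) and 1.89 (1.55 to 2.29). Cdkn1a was the 1 member of 7 at 1.5-fold in both libraries here, where 2.59% of genes were, and with all UMIs, or at 1000 or 3000 UMIs per cell, none was. Within library 2 the Cdkn1a level was higher in myeloid-high than in myeloid-low cells of every cycle range, with 55.0 against 34.5 CPM in mitosis-high and 67.8 against 17.4 CPM in neither cells. In library 1 the mitosis-high values were 18.3 and 19.5 CPM, from 4 and 12 UMIs. Cdkn1a was also higher in lymphoid-high than in lymphoid-low cells, with thinned folds of 1.22 (0.665 to 2.115) and 1.46 (1.04 to 2.03). With all UMIs these were 1.56 (1.03 to 2.30) and 1.29 (1.04 to 1.59). A higher Cdkn1a level was thus not particular to myeloid-high cells. In stem-high cells the thinned folds were 0.901 (0.484 to 1.58) and 0.973 (0.657 to 1.41).

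Among the single lineage genes, Irf8, the transcription factor of monocyte and dendritic cell development, went furthest with Cdkn1a; it is named here because its values were seen. Cells with an Irf8 UMI held 2.06 times (1.29 to 3.20) as many thinned Cdkn1a UMIs as cells without in library 1, and 1.73 times (1.30 to 2.29) in library 2. In library 2 the Cdkn1a level was 29.3 CPM (26.5 to 32.3) in cells with 0 Irf8 UMIs, 39.5 (32.6 to 47.4) with 1 and 67.3 (52.9 to 84.5) with 2 or more. In library 1 it was 20.1, 33.5 and 22.8 CPM, the last from 9 UMIs. Cells with Mpo, the granule peroxidase of neutrophil precursors, had folds of 1.66 (1.03 to 2.61) and 1.43 (1.02 to 1.97). Cells with Dntt, the polymerase of early lymphoid cells, had 1.54 (1.03 to 2.30) and 1.39 (1.07 to 1.81). Cells with Car2, a carbonic anhydrase of the erythroid list, had 0.675 (0.431 to 1.04) and 0.700 (0.533 to 0.914). These are picks from longer lists, and the lists were mixed. The counts that follow cover 9 of the 20 myeloid and 5 of the 14 lymphoid genes listed. They also cover 5 of 24 stem and 2 of 17 megakaryocyte and erythroid genes. Of the 9 myeloid genes, 6 had Cdkn1a folds above 1 in both libraries. For 2 of them, Irf8 and Mpo, both intervals lay above 1. Lyz2, the lysozyme of macrophages and granulocytes, had 0.880 (0.517 to 1.43) and 0.891 (0.645 to 1.21), while Prtn3 (0.854 and 1.17) and Csf3r (0.945 and 1.30) differed in direction. Of 5 lymphoid genes, 3 were above 1 in both libraries, and Il2rg (1.02 and 0.731) and Rhoh (0.869 and 1.20) differed in direction. Of 5 stem genes, 4 were below 1 in both, and every interval held 1. Of 2 megakaryocyte and erythroid genes, Car2 was below 1 in both and Hbb-bt (0.826 and 1.205) differed in direction. Over that whole list the Cdkn1a folds were 0.659 (0.235 to 1.495) and 0.820 (0.502 to 1.28), with intervals that hold 1.

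Trp53 folds lay between 0.918 and 1.13 in the stem, lymphoid and myeloid comparisons and were 1.26 (1.05 to 1.51) and 1.16 (1.02 to 1.30) in megakaryocyte and erythroid-high cells. Ccng1 had 1.43 (0.586 to 3.02) and 1.65 (1.03 to 2.55) there. In that comparison 0 members were at least 1.5-fold higher in both libraries, against 4.16% of genes, and 1, Gtse1 with 1 and 4 UMIs, was lower, against 4.96%. With all UMIs Ccng1 was at 1.5-fold in both libraries, at 1.54 (0.832 to 2.65) and 1.51 (1.09 to 2.06), and the Gtse1 folds were 1.04 and 0.687, so that it was not lower in library 1. In stem-high cells of both libraries 0 members were at least 1.5-fold higher, against 3.93% of genes. Gtse1 was the 1 that was lower, against 4.49% of genes, from 3 and 2 UMIs, and its direction turned with the thinning depth and the draw. In lymphoid-high cells Phlda3 was the 1 member at least 1.5-fold higher in both libraries, against 3.55% of genes, and 0 were lower, against 5.91%. It had 5 thinned UMIs in 375 lymphoid-high and 8 in 1583 lymphoid-low cells of library 1, and 9 in 771 and 10 in 2397 of library 2. The folds were 2.64 (0.679 to 9.15) and 2.80 (1.01 to 7.66), and with all UMIs 2.46 (0.917 to 6.00) and 2.66 (1.40 to 4.96). The Phlda3 folds were thus larger than those of Cdkn1a in myeloid-high cells and stayed above 1.5 with all UMIs, on far fewer UMIs. With the stricter barcode filter the log2 folds of Phlda3 were 0.16 and 0.66, and in library 1 the value was 0.15 at 1000 UMIs. In myeloid-high cells Phlda3 and Zmat3 were the 2 members that were lower, against 6.27% of genes. Phlda3 had 1 and 2 UMIs there and 9 and 15 in myeloid-low cells, and Zmat3 had 0 UMIs in the 347 and 642 myeloid-high cells and 12 and 8 in the myeloid-low ones. Neither had more than 17 thinned UMIs in any range. Gtse1 had 9 UMIs in myeloid-high cells of each library, with folds of 3.50 (1.28 to 9.28) and 0.868 (0.370 to 1.82), which differ in direction. In cells rich in immediate early transcripts, which handling can induce, 0 members were higher or lower in both libraries, against 2.75% and 2.66% of genes. Cdkn1a had folds of 0.541 (0.273 to 0.996) and 0.863 (0.578 to 1.26) there.

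**Figure D4:**
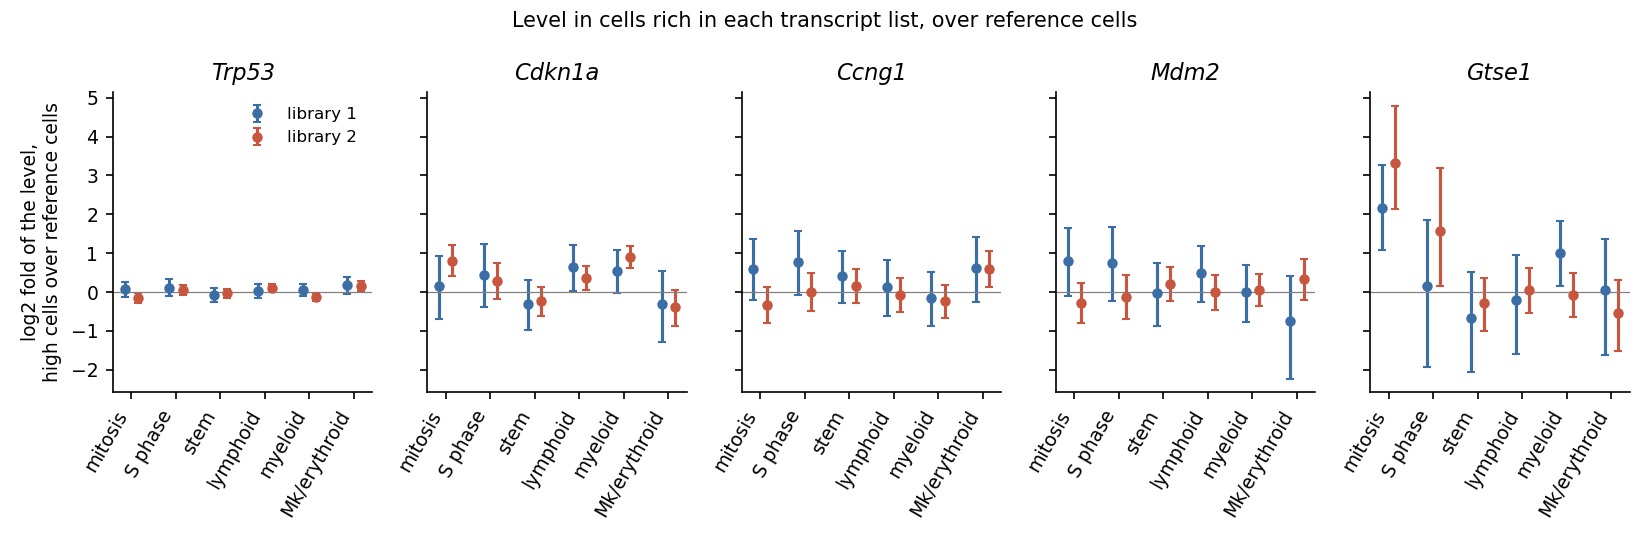
Log2 fold of the level on all UMIs (vertical axis) in cells rich in each transcript list over their reference cells, for Trp53, Cdkn1a, Ccng1, Mdm2 and Gtse1 in library 1 and library 2, with exact 95% intervals. Trp53 lies near 0 throughout, and Gtse1 is highest for mitosis. Cdkn1a in lymphoid-high and in myeloid-high cells is above 0 in both libraries. Its myeloid fold interval is 0.987 to 2.12 in library 1.

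Whether the members were seen in the same cells was asked next. Summed over all pairs, joint detection lay close to the product of the separate shares. Over the 21 pairs of members, 137 and 326 joint detections stood against 139 and 319 from the products of the shares. Most of these detections came from pairs with Trp53. Trp53 and Cdkn1a were seen together in 41 cells of library 1 (41.2 from the product) and 98 of library 2 (103 from the product). Trp53 and Mdm2 gave 33 and 64 cells against 30.2 and 63.5, and Trp53 and Ccng1 28 and 70 against 30.6 and 71.1. The 15 pairs without Trp53 gave 15 and 41 joint detections against 14.6 and 33.3, ratios of 1.03 and 1.23. Of the target pairs, Cdkn1a and Ccng1 were together in 1 and 10 cells against 3.10 and 7.98, and Cdkn1a and Mdm2 in 4 and 7 against 3.06 and 7.12.

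Of the 6 pairs with at least 5 cells expected in both libraries, 0 reached at least 25% above the product in both. Each of these 6 is Trp53 with another member, and almost no gene reached that limit with Trp53, so the 0 says little. No pair of the other members had enough cells expected to be judged this way. Among all genes with as many cells expected, the share that reached it was 0.0665% for Trp53, 1.89% for Cdkn1a, 2.48% for Ccng1, 2.12% for Mdm2, 2.22% for Phlda3, 1.76% for Zmat3 and 1.1% for Gtse1. In all, 4 of 21 pairs reached it in both libraries, each on a product under 5 cells in both libraries. Counted per cell, 2152, 279, 12 and 1 cells of library 1 held a UMI of 0, 1, 2 and 3 or more of the 6 genes other than Trp53. Independence gives 2152, 278, 13.6 and 0.320. In library 2 the cells were 3456, 523, 35 and 2, against 3449, 535, 30.8 and 0.822. Doublets were not called, and without the 5% of cells with most UMIs no pair reached it in both libraries.

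**Figure D5:**
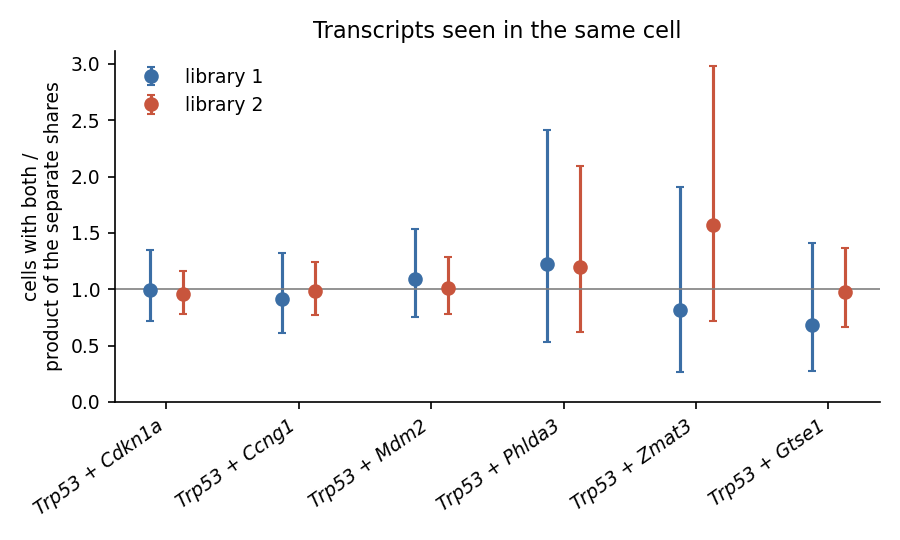
Cells with both transcripts divided by the product of the separate shares (vertical axis, linear from 0), with 95% intervals. Shown are the 6 pairs with at least 5 cells expected in each library, each of them Trp53 with another member. All 12 intervals hold 1, and Trp53 with Cdkn1a lies at 0.995 and 0.955.

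No gene of 7526 compared reached a Pearson r of 0.1 with any member in both libraries, over 2444 and 4016 thinned cells, so none is named as alike.

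The wider pathway was read from lists of p53 regulators and targets, 89 genes beyond the members, of which 67 were tested. At least 1.5-fold higher in library 2 were 3 (Aurka, Gadd45a and Fancc) and lower were 0, against the 4.79% and 2.46% above, and their median log2 ratio was 0.08. Aurka, the mitotic kinase that also phosphorylates p53, had 29.2 and 59.2 CPM, a log2 ratio of 1.02 (0.83 to 1.21). Gadd45a, a stress gene of arrest and repair, had 2.77 and 5.23 CPM (0.92, 0.30 to 1.58), and Fancc, of crosslink repair, 5.14 and 8.27 CPM (0.69, 0.22 to 1.17). The regulators Rpl11, Npm1 and Ncl, which bind Mdm2 or p53 from the nucleolus, had log2 ratios of -0.12, 0.12 and 0.23. Rpl5, of the same list, had a larger shift, at -0.47 (-0.50 to -0.44). The death genes Bax, at 212 and 232 CPM, and Bid, at 33.1 and 39.4 CPM, had 0.13 and 0.25. The arrest gene Btg2 had -0.06 and the repair gene Xpc 0.15.

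Across the ranges of cells, the 67 p53-list genes were counted where they passed 1.5-fold in both libraries. In S-high cells 7 (10.4%) were at least 1.5-fold lower, where 5.30% of all genes were, and 2 (2.99%, Chek2 and Pidd1) were higher, against 5.97%. The lower ones were the arrest genes Btg1, Btg2, Gadd45a and Cdkn1b, 4 of 11 tested in that list, and the stress genes Sesn1, Sesn2 and Ddit4, 3 of 14. Btg2 had 17 thinned UMIs in 240 S-high and 99 in 880 neither cells of library 1, and 53 in 682 and 153 in 942 of library 2. Sesn1, a regulator of the nutrient-sensing kinase mTOR, had 9 against 63 and 30 against 83 UMIs, and Cdkn1b, a cyclin-dependent kinase inhibitor, 5 against 37 and 16 against 38. The others had few UMIs in S-high cells, with 1 and 0 for Btg1, 0 and 4 for Gadd45a, 0 and 1 for Sesn2 and 2 and 9 for Ddit4. In mitosis-high cells 5 (7.46%: Dcxr, Ddit4, Sfn, Tigar and Trp53bp2) were lower, against 6.3% of all genes. There 3 (4.48%: Aurka, Ccng2 and Sesn3) were higher, against 6.93%. In stem-high cells 2 (2.99%) were lower and 3 (4.48%) higher, against 4.49% and 3.93% of all genes. In lymphoid-high cells 1 (1.49%) was lower and 2 (2.99%) higher, against 5.91% and 3.55%. In myeloid-high cells 0 were lower and 0 higher, against 6.27% and 2.59%.

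In cells with a Cdkn1a UMI, 2 of 60 members and p53-list genes with enough UMIs, Ercc5 and Trim24, were 1.5-fold higher in both libraries (3.33%), from 3 and 5 UMIs and 3 and 3 UMIs, against 1.81% of 8512 genes. Their median folds, 0.942 and 0.978, lay beside 0.961 and 0.982 for all genes.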

How the data were processed

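Single-cell RNA was measured in 2 sorted progenitor samples, 1 per genotype. The authors deposited 1 pooled matrix of UMI counts (27998 genes, 7884 barcodes, values 1 to 436); Cell Ranger 1.1 and mm10 are named in the submitters' processing notes, and further steps are not given in the sources used here. Members and gene lists were chosen with earlier results of these data known. Columns left unmapped numbered 0.

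Barcodes with at least 500 genes and under 10% mitochondrial UMIs were kept. UMIs were summed per barcode suffix and scaled per 1000000 (CPM), with exact Poisson, Clopper-Pearson and conditional Poisson 95% intervals. Cells of at least 2000 UMIs were thinned to 2000 UMIs for shares, ranges and pairs, and shallower cells were left out of these. Called means 1.5-fold, or 25% above the product for pairs. Named genes were the members, the 3 genes of each p53 list with most UMIs (some given only within counts), list genes at least 1.5-fold apart with 100 UMIs or more, and genes alike at r of at least 0.1 on log2(UMIs + 1). Rpl5, Irf8 and the other single genes beside Cdkn1a, and the list genes named by range, were chosen after their values were seen. Alternatives covered scaling, filters, thinning and list content. Python 3.11.15, numpy 2.4.6, scipy 1.17.1, pandas 2.3.3, matplotlib 3.10.9, R 4.3.3 and edgeR 4.0.16 (TMM factors only) were used. Intervals, thinning and joint detection were tested on simulated data. The simulated pairs were about as frequent as Trp53, so joint detection was not tested at the sparser level of the targets. The interval check drew Poisson counts, the spread that the intervals assume. Positions came from GENCODE M21 on GRCm38 and windows from RefSeq GRCm38.p6. No last-300-base 50-mer of the members occurred in another gene's transcripts. Cdkn1a overlaps AC167363.2 on the opposite strand.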

Additional observations from a re-analysis of the deposited data

How the results depend on the processing

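No paired analysis was possible because each genotype had 1 library. The number of members at least 1.5-fold apart between libraries was 3. It stayed 3 without MHC class II cells and without the 5% of cells with most UMIs. It was 2 with the stricter barcode filter, TMM scaling, totals without ribosomal protein and mitochondrial genes, the mean over cells, thinned cells and members of at least 200 UMIs, and 1 without mitosis-high cells. Members higher in both libraries numbered 1 for mitosis (2 at 1000 UMIs per cell), 2 for S phase (1 at 3000 UMIs, 1 without MHC class II cells, 0 with all UMIs), 0 for stem (1 at 1000 UMIs), 1 for lymphoid (0 with the stricter barcode filter) and 1 for myeloid (0 at 1000 and 0 at 3000 UMIs, 2 with a second random draw, 0 with all UMIs). Pairs at least 25% above the product in both libraries numbered 4, and 1 at 1000 UMIs, 1 at 3000 UMIs, 1 with the second draw, 1 with the stricter filter, 0 without MHC class II cells and 0 without the 5% of cells with most UMIs. The cause of these shifts was not tested. The settings with all UMIs, without the 5% of deepest cells and with shortened lists were chosen after seeing the data.

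Of 542 single-gene values under alternatives, 490 stayed within the interval of the reported value, 30 moved out of it, and 22, each at least 1.5-fold apart as reported, changed direction. All but 1 of these are folds of Gtse1, Phlda3 or Zmat3, which had few UMIs. In stem-high cells the log2 fold of Gtse1 became 0.70 at 1000 UMIs and 0.42 with the second draw in library 1, and 0.18 at 1000 and 0.028 at 3000 UMIs in library 2. That of Zmat3 in library 1 became -0.88 at 1000 and -1.36 at 3000 UMIs, -0.39 with the second draw, -1.49 with the stricter filter and -0.11 with the top 10% of cells. That of Phlda3 in library 2 became -0.053 at 3000 UMIs, -0.92 with the second draw, -0.37 with the stricter filter and -0.32 without Ifitm1 and Ifitm3 in the list, where Ccng1 in library 1 became -0.20. In library 1, Zmat3 became 1.13 at 1000 and 0.70 at 3000 UMIs in mitosis-high cells, and -0.17 at 1000 UMIs, -0.20 with the second draw and -0.25 with the stricter filter in lymphoid-high cells. Phlda3 in myeloid-high cells of library 1 became 1.09 at 1000 UMIs, 0.28 with the second draw and 0.72 with the stricter filter.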

Other observations

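Besides Cdkn1a and Gtse1, a start-site window with a p53 response element was found for 16 genes. Of these, 8 were not in the table of counts and could not be counted, and 4 of the other 8 had a UMI. Rps27l, which encodes a ribosomal protein known as a p53 target, had 878 CPM in library 1 and 737 CPM in library 2. Calhm2, of a channel family, had 18.8 and 22.3 CPM, Sptbn4 had 9 and 21 UMIs, and Gm15987 had 8 and 6.

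The 22 thinned library 2 cells with 2 or more Cdkn1a UMIs fell in every cycle range, with 8 mitosis-high, 3 S-high, 4 in neither and 7 remaining. Of these 22 cells, 5 were myeloid-high and 7 held an Irf8 UMI, which 20.6% of all 4016 thinned cells did.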
